A study of Mus musculus with 20 samples.

Results

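The NMDA receptor subunit genes Grin1, Grin2a, Grin2b, Grin2c, Grin2d and Grin3a were described in the hippocampus of Fmr1 KO and C57 mice of both sexes. They were chosen by symbol as the family members listed in all 20 libraries, and they are 6 of the 13256 genes listed there. All 6 passed the filter on low values and were among the 13174 genes tested.

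NMDA receptors are glutamate-gated cation channels at excitatory synapses that let calcium into the neuron and open only when the membrane is depolarised, because magnesium blocks them at rest. Each receptor contains GluN1, the obligate glycine-binding subunit encoded by Grin1, together with GluN2 subunits that bind glutamate (Grin2a to Grin2d) or glycine-binding GluN3 subunits such as that of Grin3a. In the forebrain GluN2B is abundant early in life and GluN2A increases after birth, and the receptor is best known in the hippocampus for its part in long-term synaptic plasticity.

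The 4 groups of 5 libraries were female Fmr1 KO, female WT, male Fmr1 KO and male WT, where WT is labelled C57. The titles of all 4 groups also carry the tag Con, which is not interpreted here. The product of Fmr1, FMRP, binds mRNAs and represses translation at synapses, and silencing of the human gene causes fragile X syndrome. The titles call the mutants KO, whereas the genotype field calls them a knockdown. The labels used here state neither age, nor the kind of Fmr1 allele, nor any pooling. They also do not say that the samples of a group are separate animals, so the p-values cover the spread between these samples, which may be technical. Values are FPKM, in which fragments are divided by transcript length and library total, so that levels of different genes can be compared per length. Comparisons between genes depend on the transcript models, whose release is not given, and on any bias with GC content or length.

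The transcripts of the 6 genes share little identical sequence. Runs of 31 or more identical bases occurred only between Grin2b and Grin2c (longest run 34 bases) and between Grin2c and Grin2d (32 bases). The longest run that Grin2a and Grin2b share is 24 bases. Grin1 and Grin3a shared no run over 17 bases with another member. These runs are those of the longest coding transcript of each gene in GENCODE M21.

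All 6 genes lie on the minus strand of mm10. The longest coding transcript is 4276 bases for Grin1 (chr2:25291181-25319187), 4895 for Grin2c (chr11:115249169-115267243), 5431 for Grin2d (chr7:45831883-45878378) and 7491 for Grin3a (chr4:49661611-49845744). Those of Grin2a (chr16:9567898-9995560) and Grin2b (chr6:135713233-136173511) are far longer, 14634 and 24060 bases, longer than 99.5% and 99.97% of the genes with an annotated length. Coding sequence makes up 30.0% of the Grin2a and 18.5% of the Grin2b transcript, against 45.5% to 75.9% in the other 4. GC content sets the same pair apart from most of the family, at 44.8% and 45.7%, while Grin3a has 49.2%, Grin1 59.4%, Grin2c 62.1% and Grin2d 65.0%. The gene models of Grin3a (with Ppp3r2 and Gm12459) and Grin2d (with Gm22098) overlap others on the same strand, and those of Grin1 (Grin1os), Grin2b, Grin2c and Grin2d overlap genes on the other strand. No source used here gives the strand setting, so reads of overlapping genes cannot be told apart.

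Grin2b, Grin2a and Grin1 were the abundant subunit genes and Grin2c, Grin3a and Grin2d the scarce ones. Over all 20 libraries Grin2b averaged 29.7 ± 2.30 FPKM (SD), Grin2a 25.6 ± 2.35, Grin1 25.3 ± 3.86, Grin2c 5.60 ± 0.822, Grin3a 3.99 ± 0.306 and Grin2d 1.40 ± 0.206. Grin2b lay above Grin2a in 20 of 20 libraries. Grin2a lay above Grin1 in 11 of 20, and these neighbours did not differ beyond their spread. Grin1 exceeded Grin2c in every library, Grin2c exceeded Grin3a in 17 of 20, and Grin3a exceeded Grin2d in every library. Of the summed FPKM of the 4 Grin2 genes, Grin2b took 47.7% ± 1.20 (SD, n = 20), Grin2a 41.0% ± 1.40, Grin2c 9.03% ± 1.503 and Grin2d 2.26% ± 0.383.

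**Figure D1:**
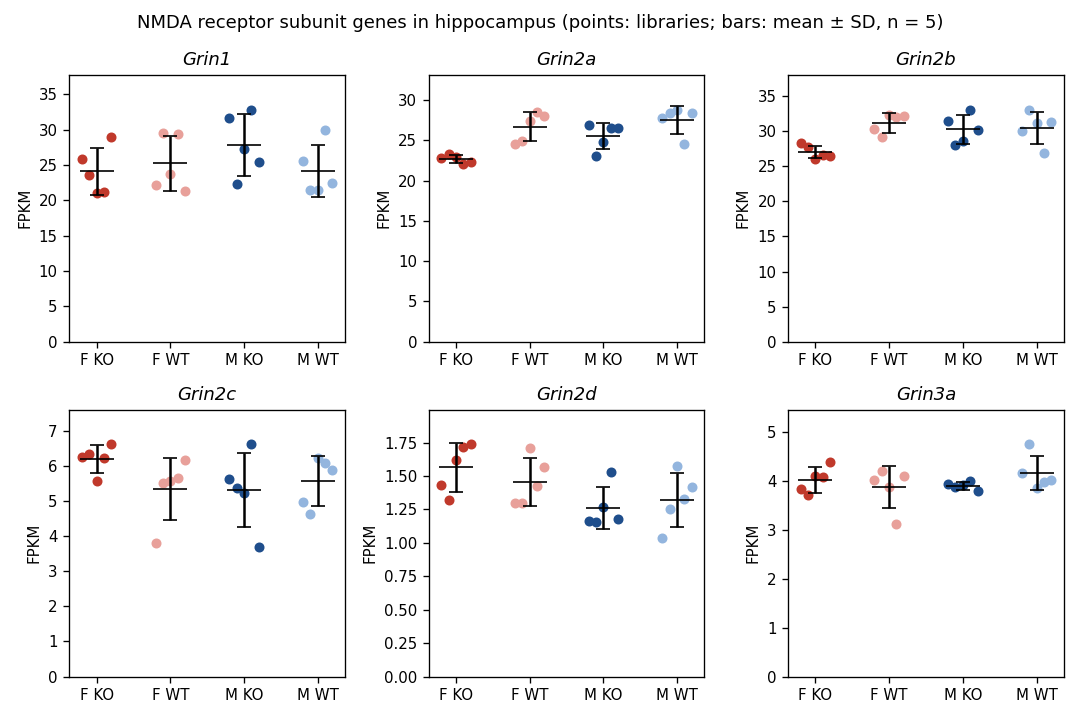
FPKM of each subunit gene (vertical axis) in the 5 libraries of female KO, female WT, male KO and male WT (points), with the mean and SD as bars. For Grin2a and Grin2b the female KO points lie together below all female WT points, while the groups of the other genes overlap.

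Fmr1 itself was low in every library labelled KO. It averaged 3.32 ± 0.327 FPKM in female KO and 10.6 ± 0.558 in female WT, and 3.56 ± 0.187 in male KO and 11.4 ± 0.527 in male WT (SD, n = 5 each). Its log2 difference was -1.43 in females and -1.44 in males (limma, adjusted p = 1.17e-12 and 1.06e-12, at most 1.28e-06 and 6.28e-08 over all alternatives), and no source used here says which part of the gene is deleted. Y-linked genes matched the sex labels, and pairs of libraries correlated at 0.977 to 0.990. All 10 dentate granule cell markers, all 7 CA1 markers and all 10 CA2 and CA3 markers were listed, with summed levels of 104 to 156.5 FPKM, 139 to 194 FPKM and 206 to 251.7 FPKM. Some libraries stand apart by markers of neighbouring tissue: Ttr, the transthyretin gene of the choroid plexus, exceeded 500 FPKM in female KO 4 and 5, female WT 4 and male KO 2, and the pituitary hormone gene Prl exceeded 4 FPKM in female KO 2, 3 and 4. Called differences between groups are given with and without these libraries. The summed cerebellar granule cell markers reached 52.4 FPKM in a female WT library, against a female WT median of 21.5 FPKM and at most 22.05 FPKM in female KO. No set of libraries was left out by this sum.

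In females, Grin2a and Grin2b, the abundant glutamate-binding subunits, fell in the KO, and Grin1, Grin2c, Grin2d and Grin3a did not pass the test. The fits used log2(FPKM + 1) in all 20 libraries, with limma and Benjamini-Hochberg adjustment over all tested genes, and a gene was called at an adjusted p under 0.05. This scale understates the change of low genes. In this comparison 2 of the 6 genes were called, against 3.32% of all tested genes (1.53% lower and 1.8% higher), and the same 2 were those at an unadjusted limma p under 0.05, against 19.5% of all tested genes.

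Grin2a encodes the subunit that gives receptors of mature synapses their fast decay. It had 22.8, 23.3, 22.9, 22.0 and 22.3 FPKM in female KO libraries 1 to 5, against 24.6, 24.97, 27.4, 28.5 and 28.0 FPKM in female WT libraries 1 to 5. Every KO library lay below every WT library, and the KO libraries ran only from 22.0 to 23.3 FPKM. The means were 22.7 ± 0.511 FPKM in female KO and 26.7 ± 1.81 FPKM in female WT (SD, n = 5 each). On the log2(FPKM + 1) scale Grin2a fell by 0.23 (SE 0.05, 95% interval -0.33 to -0.12, limma adjusted p = 0.0240). In bulk tissue, fewer cells that express a gene and less RNA per cell cannot be told apart.

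Grin2b encodes the slower-decaying subunit that predominates in young forebrain. It had 28.2, 27.7, 26.0, 26.6 and 26.5 FPKM in female KO libraries, against 30.3, 29.1, 32.3, 31.99 and 32.2 FPKM in female WT libraries. The KO libraries again all lay below the WT libraries. Groups without overlap were seen in 5.99% of all tested genes in females, with KO below WT in 2.82%. Grin2b averaged 27.0 ± 0.925 FPKM in female KO and 31.2 ± 1.43 FPKM in female WT (SD, n = 5 each), and it fell by 0.20 on the log2(FPKM + 1) scale (SE 0.05, 95% interval -0.31 to -0.09, limma adjusted p = 0.0376).

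Both calls were near the threshold. Grin2a was no longer called without female WT 3, 4 or 5 (limma adjusted p = 0.0536, 0.0700 and 0.0602), and Grin2b without female KO 2, 3, 4 or 5 or female WT 3, 4 or 5 (limma adjusted p = 0.0618 to 0.0926). With only the female libraries in the fit Grin2a was also no longer called (limma adjusted p = 0.0504). Without the 4 Ttr libraries (3 female KO and 4 female WT left) the differences were -0.18 for Grin2a and -0.17 for Grin2b (limma adjusted p = 0.176 and 0.242), and without the 3 Prl libraries (2 female KO and 5 female WT left) -0.23 and -0.18 (limma adjusted p = 0.230 and 0.344), so neither was called in either case. Over all alternatives the adjusted p of Grin2a ran from 0.0136 to 0.230 and that of Grin2b from 0.0191 to 0.344, with both differences below 0 throughout.

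**Figure D2:**
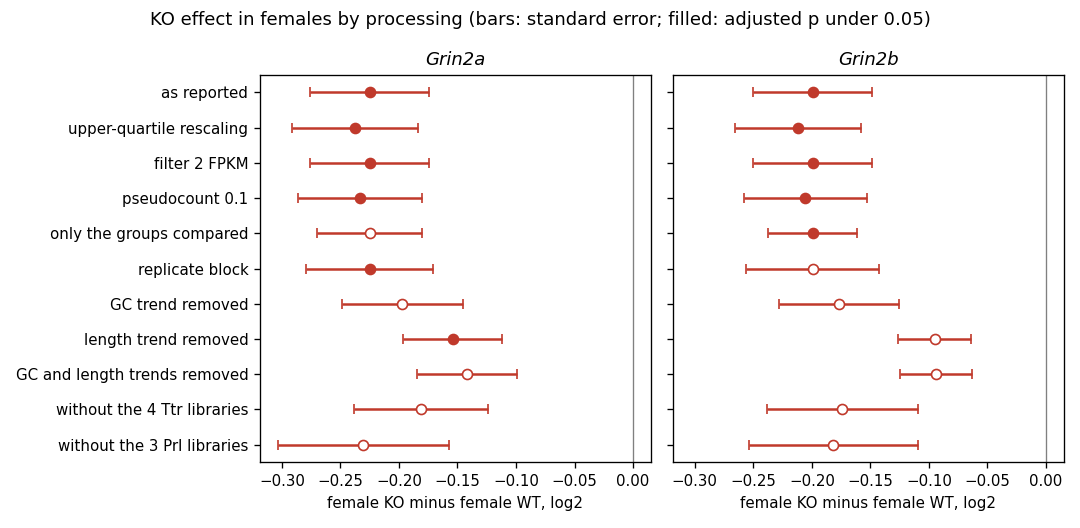
Female KO minus female WT for Grin2a and Grin2b on the log2 scale (horizontal axis, bars the standard error) under each processing of the data (rows); filled points have an adjusted p under 0.05. Every point lies below 0, and Grin2b is closest to 0, at -0.09, where the trends on transcript length or on GC content and length are removed.

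The remaining subunit genes had overlapping female groups. Grin1, the obligate subunit gene, had 25.9, 23.5, 21.04, 21.2 and 28.9 FPKM in female KO libraries, against 22.2, 29.5, 23.7, 29.4 and 21.3 FPKM in female WT libraries. These values spread widely within both groups. The difference was -0.06 on the log2(FPKM + 1) scale (95% interval -0.31 to 0.20, limma adjusted p = 0.835), an interval that still holds a change as large as that of Grin2a. Grin2c, best known from cerebellar granule cells, had 6.25, 6.33, 5.57, 6.22 and 6.61 FPKM in female KO libraries, against 3.82, 5.52, 5.58, 5.65 and 6.16 FPKM in female WT libraries. Its single low library was female WT 1, and the difference of 0.19 was not called (95% interval -0.05 to 0.43, limma adjusted p = 0.362). Grin2d, which in the adult hippocampus is a subunit gene of interneurons, had 1.43, 1.32, 1.62, 1.72 and 1.74 FPKM in female KO libraries, against 1.29, 1.30, 1.71, 1.42 and 1.56 FPKM in female WT libraries. The groups overlapped almost fully, with a difference of 0.06 (95% interval -0.08 to 0.21, limma adjusted p = 0.666). Grin3a, whose subunit lowers the calcium permeability of the receptor, had 3.83, 3.71, 4.10, 4.08 and 4.39 FPKM in female KO libraries, against 4.03, 4.202, 3.88, 3.13 and 4.11 FPKM in female WT libraries. The difference of 0.05 was within the spread (95% interval -0.08 to 0.17, limma adjusted p = 0.702).

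In males no subunit gene was called, in a comparison in which 0.0455% of all tested genes were called. At an unadjusted limma p under 0.05 there were 1145 genes in males (8.69%), and 0 of the 6 were among them. Grin2a had 26.9, 23.0, 24.8, 26.5 and 26.5 FPKM in male KO libraries, against 27.7, 28.3, 28.8, 24.6 and 28.4 FPKM in male WT libraries. Male WT 4 lay among the KO libraries, and the other 4 WT libraries lay above all KO libraries. Grin2a averaged 25.6 ± 1.64 FPKM in male KO and 27.6 ± 1.73 FPKM in male WT (SD, n = 5 each), a log2 difference of -0.11 (95% interval -0.21 to 0.0019, limma adjusted p = 0.586). Grin2b had 31.5, 28.1, 28.6, 33.1 and 30.1 FPKM in male KO libraries, against 30.1, 33.0, 31.1, 26.9 and 31.3 FPKM in male WT libraries. The highest and the lowest of these libraries were male KO 4 and male WT 4, and the groups overlapped fully. The difference of Grin2b was -0.01 (95% interval -0.12 to 0.10, limma adjusted p = 0.982).

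Grin1 had 31.6, 22.2, 27.2, 32.8 and 25.5 FPKM in male KO libraries, against 25.5, 21.4, 21.5, 30.0 and 22.5 FPKM in male WT libraries. Male KO 1 and 4 were the highest, but the groups overlapped and the difference of 0.20 was not called (95% interval -0.06 to 0.45, limma adjusted p = 0.697). Grin2c had 5.62, 5.37, 5.23, 6.61 and 3.68 FPKM in male KO libraries, against 4.96, 4.64, 6.23, 6.08 and 5.87 FPKM in male WT libraries. Both the highest and the lowest of these were KO libraries, and the difference was -0.07 (95% interval -0.31 to 0.17, limma adjusted p = 0.923). Grin2d had 1.16, 1.16, 1.27, 1.53 and 1.18 FPKM in male KO libraries, against 1.03, 1.25, 1.58, 1.33 and 1.42 FPKM in male WT libraries. Grin3a had 3.93, 3.87, 3.92, 4.01 and 3.79 FPKM in male KO libraries, against 4.16, 4.75, 3.87, 3.98 and 4.02 FPKM in male WT libraries. Male WT 2 was the highest library for Grin3a, and both genes had overlapping groups, with differences of -0.04 for Grin2d and -0.07 for Grin3a (limma adjusted p = 0.925 and 0.801).

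**Figure D3:**
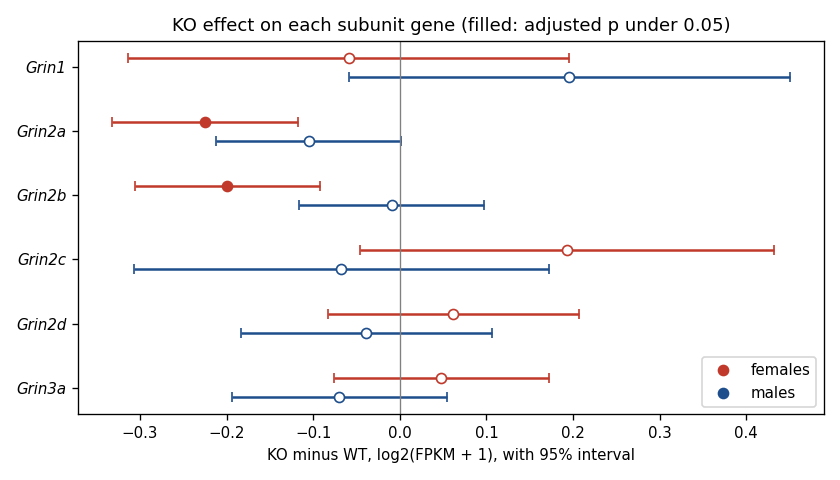
KO minus WT on the log2(FPKM + 1) scale (horizontal axis) with its 95% interval for each subunit gene, in females (red) and males (blue); filled points have an adjusted p under 0.05. Grin2a and Grin2b in females are filled, at -0.23 and -0.20, and every interval of the males reaches 0.

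Taking the mean of the female and male KO effects, Grin2a was the subunit gene that fell, 1 of 6 against 3.22% of all tested genes (1.84% lower and 1.38% higher). Its difference was -0.17 on the log2(FPKM + 1) scale (SE 0.04, 95% interval -0.24 to -0.09, limma adjusted p = 0.0186). This call held in all 20 fits that left out a single library, where the difference ran from -0.19 to -0.15. It was not called without the 4 Ttr libraries (-0.13, limma adjusted p = 0.122) or without the 3 Prl libraries (-0.17, limma adjusted p = 0.112), and its adjusted p ran from 0.00649 to 0.122 over all alternatives. Grin2b had a mean KO effect of -0.10 (95% interval -0.18 to -0.03, limma adjusted p = 0.125), which was called when male WT 4 was left out (-0.13, limma adjusted p = 0.0362).

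The KO effect was not shown to differ between the sexes for any subunit gene, in a comparison where 0.0455% of all tested genes were called. For Grin2b the effect in males minus that in females was 0.19 on the log2 scale (95% interval 0.04 to 0.34, limma adjusted p = 0.406), and it was the 1 member with an unadjusted p under 0.05, against 10% of all tested genes. For Grin2a it was 0.12 (95% interval -0.03 to 0.27, limma adjusted p = 0.612). Between the sexes over both genotypes, 5.58% of all tested genes were called (2.95% lower and 2.63% higher in males) and 0 of the 6, with 2 of the 6 at an unadjusted limma p under 0.05, against 23.4% of all tested genes. These were Grin2a, at 0.10 for males minus females, and Grin2d, at -0.13 (limma adjusted p = 0.0888 and 0.107). Of the 6, Grin2a was called when male WT 4 was left out (0.12, limma adjusted p = 0.0303).

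GluN2 subunits take the same positions in the receptor, so the make-up of the summed Grin2 mRNA is given as well. In bulk tissue such shares do not show whether the genes are expressed in the same cells or joined in the same receptors. In female KO, Grin2c took 10.8% ± 0.5995 of the summed Grin2 FPKM, against 8.24% ± 1.11 in female WT (SD, n = 5 each). The female KO libraries ran from 9.92% to 11.6% and the female WT libraries from 6.36% to 9.07%, without overlap. The Grin2a share did not overlap either (38.86% to 40.78% against 40.92% to 42.19%), while those of Grin2b and Grin2d did. By FPKM, female groups did not overlap in 5.99% of all tested genes. A share rises when the other genes fall, and Grin2c has a far higher GC content than Grin2a and Grin2b. These differences in share were not tested. The summed Grin2 FPKM itself was 57.4 ± 1.22 FPKM in female KO and 64.7 ± 3.91 FPKM in female WT, and 62.4 ± 4.08 FPKM in male KO and 64.9 ± 3.72 FPKM in male WT (SD, n = 5 each). This sum did not overlap in females either (56.1 to 58.75 FPKM in KO, 59.99 to 67.94 FPKM in WT). It consists mostly of Grin2a and Grin2b, each already without overlap in females, so it is not a separate observation. Grin1 per summed Grin2 was 0.419 ± 0.0551 in female KO and 0.391 ± 0.0678 in female WT, and 0.445 ± 0.0440 in male KO and 0.376 ± 0.0817 in male WT (SD, n = 5 each), with overlapping ranges in both sexes.

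The ratio of Grin2a to Grin2b was 0.808, 0.840, 0.878, 0.827 and 0.842 in female KO libraries, against 0.810, 0.858, 0.849, 0.891 and 0.870 in female WT libraries. Both genes were lower in female KO and their ratio overlapped between the groups, with a log2 difference of -0.03 (two-sided exact permutation p = 0.365, n = 5 each). In males the ratio was 0.856, 0.821, 0.867, 0.803 and 0.881 in KO libraries, against 0.921, 0.859, 0.926, 0.913 and 0.909 in WT libraries. Male WT 2 lay among the KO libraries and the other WT libraries lay above them. The log2 difference in males was -0.10 (two-sided exact permutation p = 0.0238, adjusted over both sexes 0.0476, n = 5 each, smallest possible p 0.0079). Leaving out single male libraries gave -0.12 to -0.08, and the p adjusted in the same way stayed under 0.05 in 1 of these 10 fits and lay above it in 9 (exact permutation, adjusted p = 0.0317 to 0.0952), with fewer splits possible. Without the Ttr libraries, of which male KO 2 is the male one, the difference was -0.09 (exact permutation, adjusted p = 0.0952), and no male library was high in Prl. The difference between the sexes in this ratio was not tested.

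**Figure D4:**
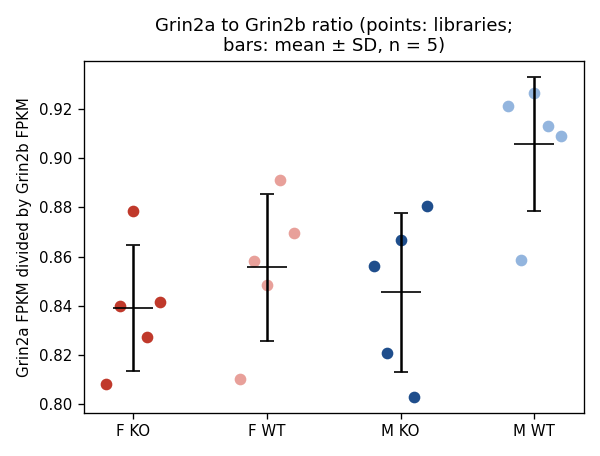
Grin2a FPKM divided by Grin2b FPKM (vertical axis, not starting at 0) in each library of the 4 groups, with the mean and SD as bars (n = 5). The mean is 0.845 in male KO and 0.906 in male WT, and 0.839 in female KO and 0.856 in female WT.

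Grin2a and Grin2b have long transcripts of low GC content, and over all genes the female KO effect varied with both properties. Library values, as deviations from each gene's mean, rose with GC content most steeply in the 5 female KO libraries, by 0.0613 to 0.0773 log2 per 10 percentage points, against -0.0286 to 0.0308 in female WT libraries. In male KO libraries the slopes were -0.0690 to 0.0101, and in male WT libraries -0.0978 to 0.0127. The median female KO effect was -0.02 in the third decile of genes by GC, which holds Grin2a and Grin2b, and 0.08 in the top decile, which holds Grin1, Grin2c and Grin2d. In the longest decile of transcripts, with Grin2a, Grin2b and Grin3a, it was -0.04. Grin2a and Grin2b themselves were at -0.23 and -0.20. They are singled out because they were called lower, so a place below these medians was given in advance. The longest decile also holds far shorter transcripts than theirs. The part of GC content and length in their difference was not tested.

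With the GC trend removed from each library, the female differences were -0.20 for Grin2a and -0.18 for Grin2b (limma adjusted p = 0.0549 and 0.0789), and neither was called. With the length trend removed, Grin2a was still called at -0.15 (limma adjusted p = 0.0474), while Grin2b was at -0.09 (limma adjusted p = 0.0915), a change of over 1.5 times. With both removed they were at -0.14 and -0.09 (limma adjusted p = 0.0824 and 0.107). The mean KO effect of Grin2a remained called under each of these (limma adjusted p = 0.0376, 0.0115 and 0.0190). Grin2d, the member of highest GC content, was at -0.04 in females with the GC trend removed.

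**Figure D5:**
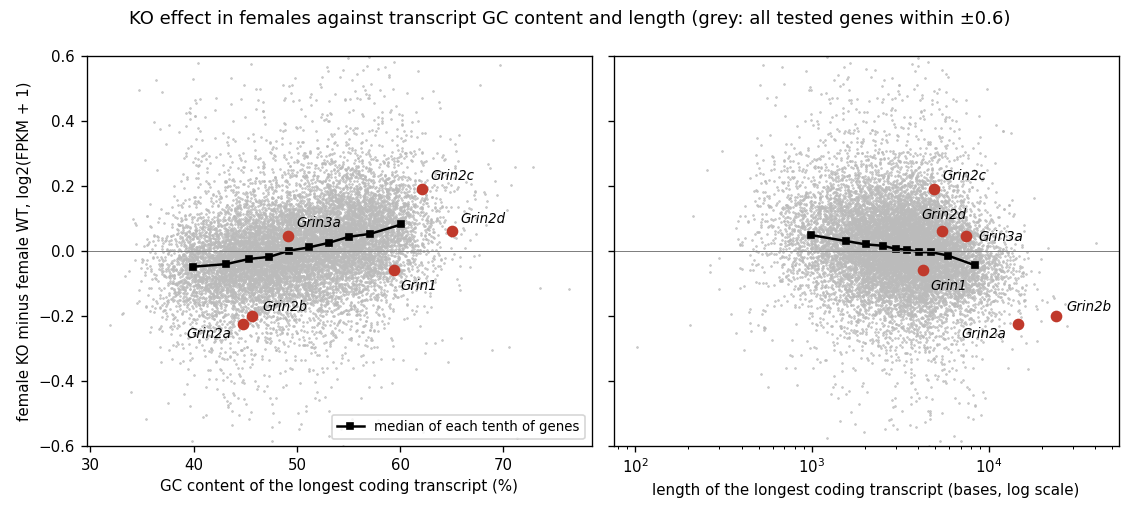
Female KO minus female WT on the log2(FPKM + 1) scale (vertical axis) against GC content in percent (left) and length in bases on a log axis (right) of the longest coding transcript, for all tested genes within the axis (grey), the medians of each decile of genes (black) and the subunit genes (red). Grin2a and Grin2b lie at low GC content and great length.

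Some markers of hippocampal cell types were called in females, and most were not. Of all tested genes, 1.53% were called lower and 1.8% higher in this comparison. The 10 dentate granule cell markers had a median KO effect of -0.25, with 10 of 10 below 0 and 3 called lower (Tdo2, Trpc6 and Rfx3). Their summed level ran from 104 to 135 FPKM in female KO and from 134 to 156.5 FPKM in female WT, and from 130.0 to 138 FPKM in male KO and from 132 to 142.5 FPKM in male WT. The 10 CA2 and CA3 markers had a median of -0.09, with 8 of 10 below 0 and 0 called. They summed to 218 to 233.5 FPKM in female KO and 239 to 251.7 FPKM in female WT. Pcp4 alone averaged 142.9 FPKM in female KO and 158.5 FPKM in female WT (limma adjusted p = 0.115) and so weighs heavily in this sum. The 7 CA1 markers had a median of 0.08, with 5 above 0, 2 below 0 and 2 called higher (Fibcd1 and Nov). They summed to 149 to 194 FPKM in female KO and 142 to 172 FPKM in female WT. In males the CA1 markers went the other way, with a median of -0.15, 5 of 7 below 0 and 0 called. The 10 interneuron markers had a median of 0.05, with 7 above 0, 3 below 0 and 1 called higher (Sst). They summed to 540.1 to 592 FPKM in female KO and 466 to 547 FPKM in female WT. Sst alone averaged 318.2 FPKM in female KO and 268.5 FPKM in female WT and so weighs heavily in this sum. Oligodendrocyte markers were below 0 in 10 of 10, with a median of -0.16 and 1 called lower (Opalin), and summed to 595 to 734 FPKM in female KO and 542 to 919 FPKM in female WT. In males they were likewise below 0 in 10 of 10, with a median of -0.18 and 0 called. Astrocyte markers were above 0 in 9 of 10 in females and 8 of 10 in males, with medians of 0.07 and 0.09 and 0 called in either sex. Without the 4 Ttr or the 3 Prl libraries none of these hippocampal markers was called in females. The 10 dentate markers were then still all below 0 (medians -0.18 and -0.17), and the oligodendrocyte medians were -0.01 and -0.25. The part of these cell types in the lower Grin2a and Grin2b of female KO was not tested.

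Choroid plexus markers, of which 7 of 8 were tested, were above 0 in 7 of 7, with a median of 0.67 and none called. Their summed level ran from 43.2 to 1524 FPKM in female KO and from 12.7 to 913 FPKM in female WT. Erythrocyte markers were above 0 in 5 of 5 (median 0.47, none called), and meningeal markers in 5 of 6 (median 0.32, Col1a1 called higher, also without the Ttr libraries with limma adjusted p = 0.0352, and not without the Prl libraries with 0.115). Of 5 pituitary markers Cga and Lhb were not listed, and Prl was listed at 0 in female KO 1 and in 4 of 5 female WT libraries. The pituitary sum ran from 0.508 to 129 FPKM in female KO and from 0.128 to 4.52 FPKM in female WT. Other lists went the other way or were mixed. Thalamus markers were below 0 in 4 of 4 (median -0.06), with Prkcd called lower (-0.46, limma adjusted p = 0.0424). Without the Ttr or Prl libraries Prkcd was not called (limma adjusted p = 0.271 and 0.22). Cerebellar granule cell markers, 4 of 6 tested, were below 0 in 4 of 4 (median -0.26, none called). Microglia markers were below 0 in 5 of 8 (median -0.075) and cortex markers in 2 of 5 (median 0.02), none called. Without either set of libraries both Grin2a and Grin2b remained lower in female KO, by the values given above, but were not called.

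Grin1 and Grin2c varied most between libraries of the same group. The within-group SD of Grin1 was 0.21 on the log2(FPKM + 1) scale, larger than that of 92.6% of 1419 genes of like level, whose median was 0.08. For Grin2c it was 0.19, larger than that of 83.6% of 3216 such genes. Grin2a (0.08, larger than 49.5%) and Grin2b (0.08, larger than 51.0%) were near the middle of theirs, and Grin2d (0.11, 34.5%) and Grin3a (0.09, 29.9%) below it. The intervals of the KO effects of Grin1 and Grin2c were the widest of the 6.

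Grin2a and Grin2b varied together within groups. After each group's mean was subtracted, their log2 values correlated over the 20 libraries at Pearson's r = 0.833 and Spearman's rho = 0.746 (permutation p = 0.00027 and 0.00137, adjusted over 15 pairs 0.00405 and 0.0205). Without the 2 libraries farthest from the median of Grin2a, r was 0.718. No other pair of members passed the adjustment, the nearest being Grin2c with Grin2d (r = 0.524, rho = 0.538, permutation p = 0.0268 and 0.0206, adjusted 0.201 and 0.154). Such values share the library, and with it depth and base composition, and Grin2a and Grin2b share low GC content and great length.

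The genes most like each member among all tested genes, by the same within-group correlation (Pearson's r over 20 libraries), are given as a description. Grin2b was followed most closely by Birc6 (r = 0.953), which encodes a giant inhibitor of apoptosis protein, then Cnksr2 (0.918), a scaffold gene of the synapse, and Cacna1e (0.916), an R-type calcium channel gene. Grin2a was followed by Cnksr2 (0.873), Cacna1e (0.847) and Grin2b itself (0.833). The transcripts of Birc6, Cnksr2 and Cacna1e are 15768, 5738 and 14921 bases long. Grin3a was most like Timp2 (0.929), Efnb2 (0.893) and Tenm2 (0.889), and Grin1 most like Ubr3 (0.844), Ppcdc (0.781) and Fam222a (0.777). Grin2d was most like Cdh11 (0.792), Tnfrsf19 (0.761) and Mmab (0.752), and Grin2c had the weakest likeness, with Pcdh9 (0.746), Ganc (0.732) and Sap30l (0.731). The transcripts of Timp2, Ubr3, Cdh11 and Pcdh9, each the most like its member, are 3709, 8081, 5647 and 6521 bases long. The part of length in this likeness was not tested.

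Of 76 tested genes that work beside NMDA receptors, in 6 lists, 2 were called in females, both higher, and 0 in males. That is 2.63% of the 76 in females, against 3.32% of all tested genes. At an unadjusted limma p under 0.05 there were 19 in females and 7 in males (25% and 9.21% of the 76, against 19.5% and 8.69% of all tested genes). Without the 4 Ttr or the 3 Prl libraries 0 of the 76 were called in females. None of the 9 AMPA and kainate receptor genes was called in females (median -0.06, against 0.01 over all genes), and the smallest p was that of Gria2, the subunit gene that limits calcium entry through AMPA receptors (-0.12, limma adjusted p = 0.0817). Of the 19 genes with an unadjusted limma p under 0.05 in females, 9 were kinase, phosphatase and Ras regulator genes, 4 supply, 3 transport, 2 AMPA and kainate, 1 scaffold and 0 delta receptor genes. Neither of the 2 delta receptor genes and none of the 11 scaffold genes was called (the smallest p among scaffold genes was that of Magi2, at -0.12, limma adjusted p = 0.184). Among 25 kinase, phosphatase and Ras regulator genes, Calm3, a calmodulin gene, rose by 0.17 in female KO (limma adjusted p = 0.0395), and this call was lost in 9 of 20 fits that left out a single library and with the GC trend removed (0.11, limma adjusted p = 0.128). Without the 4 Ttr libraries Calm3 was at 0.17 and without the 3 Prl libraries at 0.15 (limma adjusted p = 0.191 and 0.381), and it was not called with the replicate block or with only the female libraries either (limma adjusted p = 0.0761 and 0.0508). Among 14 tested transport genes, Gipc1, whose protein binds GluN2 and other membrane proteins in trafficking, averaged 19.2 ± 0.644 FPKM in female KO and 15.9 ± 0.723 FPKM in female WT (SD, n = 5 each). It rose by 0.26 (limma adjusted p = 0.00827), in all 20 such fits, and was not called without the 4 Ttr or the 3 Prl libraries (limma adjusted p = 0.0674 and 0.164). None of the 15 tested glutamate and co-agonist supply genes was called (Glul 0.18, limma adjusted p = 0.0823).

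For the mean of both sexes, Gipc1 (0.18), Cdk5 (0.12) and Glul (0.14) were among the 4 genes that rose (limma adjusted p = 0.00644, 0.0369 and 0.0493), and no gene of the 6 lists fell. These 4 are 5.26% of the 76, against 3.22% of all tested genes, and 1 of the 76 was called without the Ttr libraries (Gipc1) and 1 without the Prl libraries (Slc7a10, a transporter gene of small neutral amino acids, which was not among the 4). Cdk5 encodes a neuronal kinase and Glul the astrocyte enzyme glutamine synthetase. The calls of Cdk5 and Glul were lost in 12 and 16 of the 20 fits without a single library, without the Ttr libraries (limma adjusted p = 0.143 and 0.121), without the Prl libraries (0.203 and 0.258), with the replicate block (0.0664 and 0.0758) and with the GC trend removed (0.0546 for both). Gipc1 was still called without the Ttr libraries (0.18, limma adjusted p = 0.0327) and not without the Prl libraries (0.16, limma adjusted p = 0.0803). Males had no called gene in these lists, the smallest p in the supply list being that of Slc1a2, the main astrocyte glutamate transporter (0.17, limma adjusted p = 0.224). Between the sexes over both genotypes 4 of the 76 genes were called (5.26%, against 5.58% of all tested genes), among them Gria3, higher in males (0.12, limma adjusted p = 0.0192), and Calm3, lower in males (-0.15, limma adjusted p = 0.0154). With the GC trend removed neither was called (limma adjusted p = 0.134 and 0.168), and the difference of Calm3 was -0.07. Without the Ttr libraries Gria3 was no longer called and Calm3 was (limma adjusted p = 0.0926 and 0.0436), and without the Prl libraries neither was (0.11 and 0.123).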

How the data were processed

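RNA of hippocampal tissue was extracted with TRIzol and made into libraries with a SMARTER mRNA kit, per the labels' protocols. The deposited values are FPKM per gene, 1 column per library, computed by the authors, per the file headers. Reads were processed with FastQC, HISAT2 and StringTie on mm10, per the submitters' processing notes, which give no versions. Which annotation release, trimming and strand setting were used is not given in the sources used here. Low values showed no whole-read steps: in 190 pairs of libraries, at most 1.39% of 308 to 490 genes under 0.6 FPKM shared a ratio within 0.05%. Depth is therefore unknown, and no counting interval was computed. Total FPKM ran from 230631 to 244976 and 18 to 28 genes per library were listed at 0.

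Groups and replicate numbers came from the sample titles. Genes with 0.5 FPKM in at least 5 libraries were kept. Limma 3.58.1 in R 4.3.3 (limma-trend) was run on log2(FPKM + 1), with 4 group means over 20 libraries. P-values were adjusted by Benjamini and Hochberg over all 13174 genes, with a threshold of 0.05. The 5 comparisons were KO minus WT in females, in males and as the mean of both, the difference of those effects (males minus females), and males minus females over both genotypes. The ratio of Grin2a to Grin2b was tested within each sex by a two-sided exact permutation test over all splits (scipy 1.17.1, Python 3.11.15), and correlations with 100000 permutations. GC content and length are those of the longest coding transcript in GENCODE M21, in which 13228 of 13256 identifiers were found, and 13095 tested genes had both. Trends on them were removed with loess (span 0.5, degree 1). The limma fit was also run on simulated data with independent noise for each gene. That simulation held none of the GC, length or tissue trends of these libraries, so it does not check the calls against them.

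The members and lists were chosen with earlier results of these data known. Named were the members, Fmr1, in each list the genes past the threshold or else that with the smallest p, and the 3 genes most like each member. The marker genes past the threshold, Slc7a10, Ttr and Prl were named after their values were seen. Some genes that this rule names are not reported here. Alternatives were upper-quartile rescaling, filtering at 2 FPKM or not at all, adding 0.1 in place of 1, a replicate block, a fit of only the groups compared, removal of the GC trend and leaving out each library. Removal of the length trend, removal of both trends, and leaving out the 4 Ttr or the 3 Prl libraries were chosen after seeing the data.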

Additional observations from a re-analysis of the deposited data

Results flagged for a closer look

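In 24 groups of 5 libraries (6 genes in 4 groups), a library was singled out where its gap to the nearest library exceeded 0.71 of the whole range of its group, which chance gives in about 1 in 20 groups. For Grin2a, male WT 4 was far below the rest of its group at 24.55 FPKM, against 27.7 FPKM in the nearest library, a gap of 0.741 of the range. For Grin2c, female WT 1 was low at 3.816 FPKM, against 5.52 FPKM in the nearest library, a gap of 0.729 of the range.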

How the results depend on the processing

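The number of subunit genes called in females, 2 as reported, was 1 with the length trend removed (Grin2a) or only the groups compared (Grin2b), and 0 with the GC trend or both trends removed or without the Ttr or Prl libraries. For the mean of both sexes, the 1 called subunit gene became 0 without either set of libraries. Leaving out single libraries gave 0 to 2 called subunit genes in females, 1 to 2 for the mean, 0 to 1 between the sexes and 0 to 0 in males and for the difference of the effects. Over all genes, the 438 calls in females were 256 with the GC trend removed, 76 without the Ttr and 8 without the Prl libraries, 91 with only the groups compared, and 176 to 525 without single libraries. The 6 calls in males were 3 with the 2 FPKM filter, 11 with both trends removed, 12 without the Ttr libraries and 6 to 11 without single libraries. The 424 calls for the mean were 181 without the Ttr and 84 without the Prl libraries, and 273 to 449 without single libraries. The 6 calls for the difference were 0 with the 2 FPKM filter, 3 with the GC trend or both trends removed, 2 without the Prl libraries and 3 to 7 without single libraries. The 735 calls between the sexes were 117 with the GC trend removed, 165 with both removed, 230.0 without the Ttr and 87 without the Prl libraries, and 351 to 1075 without single libraries. Of the female calls 237 were higher and 201 lower as reported, 202 and 270 with upper-quartile rescaling, and 111 and 145 with the GC trend removed. The cause of these shifts was not tested; leaving out libraries also leaves fewer samples.

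Replicate numbers did not pair the libraries: same-numbered libraries deviated from their group means with correlations of -0.105 to 0.0651, and 1 of 20 correlated best with its own number. With the replicate block, 1 subunit gene was called in females, Grin2a, and Grin2b was not (limma adjusted p = 0.0725). Over all genes, 3 were then called for the difference of the effects. With the same block the ratio of Grin2a to Grin2b in males was at -0.0996 (exact sign-flip p = 0.0625, the smallest that test gives). Without single libraries that ratio was at -0.119 to -0.0813.

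Differences that changed sign were all uncalled. Without the Prl libraries Grin1 was at 0.126 in females and -0.0221 between the sexes, and Grin3a at 0.00127 for the mean. Without the Ttr libraries Grin2b was at 0.0162 in males, Grin2d at -0.00387 in females and -0.0133 for the mean, and Grin3a at -0.0504 in females. With the GC trend removed Grin2c was at 0.026 between the sexes, and Grin2d at -0.0441 in females, -0.0438 for the mean and 0.000676 for the difference. With both trends removed Grin2c was at 0.0154 between the sexes, and Grin2d at -0.0355 in females and -0.0402 for the mean. With upper-quartile rescaling Grin2b was at 0.0011 in males. Without single libraries the difference in males ran from -0.0519 to 0.0194 for Grin2b and -0.14 to 0.0356 for Grin2c. That for the mean ran from -0.0117 to 0.0308 for Grin2d. For Grin3a it ran from -0.0103 to 0.0729 in females, -0.0402 to 0.0089 for the mean and -0.00327 to 0.0387 between the sexes.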
